A study of Mus musculus with 5 samples.

Results

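The genes described here are the immunoglobulin heavy chain variable genes (Ighv), counted in 5 single-cell libraries from spleens of mice that carried a leukaemia. They were chosen by 2 criteria, a symbol that begins with Ighv and a total of 10 or more unique molecular identifiers (UMIs, each standing for 1 captured RNA molecule) over all barcodes of the 5 libraries. Of the 185 Ighv genes in the files 83 met both, and they held 12321 of the 12445 Ighv UMIs (99.0%). Another 35 genes had between 1 and 9 UMIs, and 67 had 0. The same limit was reached by 44.9% of the Ighv genes and by 58.0% of all 32285 genes. Just inside the limit lay Ighv4-2 and Ighv1-41 with 12 UMIs each, Ighv1-31 with 11 and Ighv1-54 with 10, and just outside it Ighv1-49 and Ighv1-83 with 9 each and Ighv1-23 with 8. The member with the most UMIs was Ighv1-81 with 619, and the median member had 106.

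C57BL/6 mice received CMM cells intravenously, an acute myeloid leukaemia with an inv(16) rearrangement that carries green fluorescent protein (GFP). Once GFP-positive cells made up roughly 1% of the blood, the mice were injected intravenously 3 times, on alternate days, with PBS or with CpG-STAT3dODN. The latter links an oligonucleotide decoy of STAT3, a transcription factor that binds it in place of its target genes, to a CpG sequence that is a ligand of the endosomal receptor TLR9. Spleen cells sorted for GFP and c-Kit were profiled with droplet 3′ chemistry. One library came from PBS (n = 1) and 4 from CpG-STAT3dODN (Decoy 2, Decoy 3, Decoy 5 and Decoy 6), and every group carried the leukaemia. The labels name no age or sex and do not say whether each library is a separate animal, so any p-value measures only the spread between these libraries.

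An antibody heavy chain is encoded by 1 V, 1 D and 1 J segment that V(D)J recombination joins in a developing B cell, so that a B cell and its descendants normally express a single rearranged V gene next to a constant gene. The V segment supplies most of the antigen-binding domain, including the first pair of its 3 hypervariable loops. Plasma cells are B lineage cells that secrete antibody and transcribe the rearranged gene at a very high rate. In 3′ libraries the constant end of a heavy chain transcript is read far more often than the V segment, which lies near its 5′ end.

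All 83 members lay on the minus strand of chromosome 12 within 2422 kb (mm10, GENCODE vM21 annotation), 80 of them annotated as functional V genes and 3 as pseudogenes. Of the 67 genes with 0 UMIs, 51 were annotated as pseudogenes and 14 as functional V genes. The V regions of the genes that the results turn on are printed from the GENCODE vM21 transcripts, as the 294 bases that end 6 bases after the codon of the conserved second cysteine. They are all part of exon 2 and hold no untranslated sequence. Ighv1-26 (chr12:114788372-114788665) was the most used gene in plasma cells, followed by Ighv3-8 (chr12:114322376-114322669), Ighv9-3 (chr12:114140692-114140985) and Ighv1-81 (chr12:115920279-115920572). Ighv1-64 (chr12:115507545-115507838) led 1 set of isotype-switched cells. Capitals mark the cysteine codon.
Ighv1-26: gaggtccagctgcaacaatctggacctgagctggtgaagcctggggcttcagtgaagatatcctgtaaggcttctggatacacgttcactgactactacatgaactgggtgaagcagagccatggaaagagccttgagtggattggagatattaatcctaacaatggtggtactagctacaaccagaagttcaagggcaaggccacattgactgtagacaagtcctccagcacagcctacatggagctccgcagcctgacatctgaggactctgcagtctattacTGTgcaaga
Ighv3-8: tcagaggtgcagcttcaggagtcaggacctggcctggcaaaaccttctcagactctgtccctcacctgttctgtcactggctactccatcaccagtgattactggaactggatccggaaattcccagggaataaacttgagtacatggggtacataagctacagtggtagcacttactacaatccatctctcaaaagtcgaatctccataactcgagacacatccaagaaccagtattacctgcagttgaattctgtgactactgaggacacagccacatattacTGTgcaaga
Ighv9-3: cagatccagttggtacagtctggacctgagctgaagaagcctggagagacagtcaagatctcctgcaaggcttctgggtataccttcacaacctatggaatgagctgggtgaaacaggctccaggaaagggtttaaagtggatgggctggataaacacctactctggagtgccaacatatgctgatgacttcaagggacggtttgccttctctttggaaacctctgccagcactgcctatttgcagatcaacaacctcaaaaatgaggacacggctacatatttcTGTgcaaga
Ighv1-81: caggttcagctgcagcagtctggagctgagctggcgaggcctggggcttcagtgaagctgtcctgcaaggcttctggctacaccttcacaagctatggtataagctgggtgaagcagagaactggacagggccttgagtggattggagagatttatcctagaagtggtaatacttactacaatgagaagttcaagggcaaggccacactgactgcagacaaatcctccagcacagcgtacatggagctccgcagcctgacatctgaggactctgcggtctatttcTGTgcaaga
Ighv1-64: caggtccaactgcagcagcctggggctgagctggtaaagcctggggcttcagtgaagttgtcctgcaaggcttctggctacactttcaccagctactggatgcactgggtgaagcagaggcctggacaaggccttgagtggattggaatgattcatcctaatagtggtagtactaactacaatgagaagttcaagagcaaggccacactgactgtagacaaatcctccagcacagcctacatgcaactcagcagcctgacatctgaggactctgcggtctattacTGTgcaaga
Compared base by base from the cysteine codon, with no gaps, Ighv1-64 and Ighv1-81 were 88.8% identical and Ighv1-26 and Ighv1-81 85.4%. The median identity was 86.1% over 813 pairs of members of 1 family, which the first number of the symbol names. Only members annotated as functional V genes in which the cysteine codon was located were compared. Families differ in length, so no identity between families is given.

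Close relatives matter because a read is assigned to a gene by its sequence. Ighv1-18 (chr12:114682632-114682925) differed from Ighv1-26 at 8 of 294 bases (97.3% identity), and Ighv1-62-3 (chr12:115460999-115461292) from Ighv1-72 (chr12:115757984-115758277) at 2 bases (99.3%), the closest pair of the members compared. Capitals mark the differing bases in Ighv1-18 and Ighv1-62-3 and the cysteine codon in Ighv1-72.
Ighv1-18 against Ighv1-26: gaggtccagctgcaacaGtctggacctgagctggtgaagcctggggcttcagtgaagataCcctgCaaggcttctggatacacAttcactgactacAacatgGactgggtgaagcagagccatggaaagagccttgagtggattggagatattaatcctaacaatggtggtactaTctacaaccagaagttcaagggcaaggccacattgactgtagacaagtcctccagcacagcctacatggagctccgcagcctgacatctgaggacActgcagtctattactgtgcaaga
Ighv1-72: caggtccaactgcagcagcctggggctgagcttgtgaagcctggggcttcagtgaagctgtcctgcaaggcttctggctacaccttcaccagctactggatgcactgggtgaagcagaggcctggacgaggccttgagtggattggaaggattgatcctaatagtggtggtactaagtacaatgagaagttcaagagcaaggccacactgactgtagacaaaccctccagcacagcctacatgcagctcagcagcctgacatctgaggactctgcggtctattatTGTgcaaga
Ighv1-62-3 against Ighv1-72: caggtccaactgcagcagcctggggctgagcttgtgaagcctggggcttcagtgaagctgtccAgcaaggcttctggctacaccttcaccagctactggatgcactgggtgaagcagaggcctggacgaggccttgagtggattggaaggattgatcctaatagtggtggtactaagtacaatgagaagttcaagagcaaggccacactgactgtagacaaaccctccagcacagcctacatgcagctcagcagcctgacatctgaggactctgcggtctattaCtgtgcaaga
Windows of 100 bases were found in the transcripts of no other Ighv gene along the whole length of 60 of the 83 members, and along 57.2% of the least unique one. In plasma cells Ighv1-72 had 27, 8, 57 and 7 UMIs in Decoy 2, 3, 5 and 6, and Ighv1-62-3 had 13, 4, 30 and 3. The second gene thus stood at between 42.9% and 52.6% of the first in every Decoy library. Each of the 2, 1, 7 and 1 plasma cells with 3 or more Ighv1-72 UMIs also had Ighv1-62-3 UMIs, so the counts of these 2 genes are uncertain. Only 1 plasma cell was assigned to Ighv1-72 and 0 to Ighv1-62-3 in the assignment that follows.

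Plasma cells were taken as kept barcodes with 5 or more Jchain UMIs, Jchain being the chain that joins antibody units into polymers. B cells had fewer than 5 Jchain UMIs, 3 or more of 6 B lineage genes, among them Cd79a, Cd79b, Ms4a1, Fcmr and Ighd, and 5 or more UMIs over them. They also had fewer UMIs over markers of other lineages, among them Fcer1a, Ms4a2 and Cpa3, than over these 6 genes. The plasma cell gate had no such exclusion. No Ighv gene was used in either gate. The PBS library held 8 plasma cells and 215 B cells among 17219 kept cells, and Decoy 2, 3, 5 and 6 held 38, 141, 265 and 106 plasma cells and 144, 375, 1220 and 486 B cells among 6252, 1941, 3607 and 3221. The labels call the sorted cells AML, whereas the gates of both classes rest on Jchain or on B lineage genes. Cells with leukaemic mast-like markers made up 84.7% of kept cells in the PBS library and between 0.250% and 76.6% in the Decoy libraries. Library totals ran from 56490098 to 579333323 UMIs. The median plasma cell had between 28678 and 42157 UMIs and the median B cell between 4071 and 9634. Of 558 plasma cells 6, and of 2440 B cells 20, had a barcode that also occurred in another library, and 0 of these recurred within the same class.

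The classes were checked against markers summed in CPM, the UMIs of a gene scaled to a common total of UMIs per class and library. A list of 10 plasma cell genes, which includes Jchain itself, summed to between 9203 and 16842 CPM in plasma cells and between 342 and 571 in B cells. A list of 12 B cell genes, 6 of them used by the gate, summed to between 12639 and 15069 CPM in B cells and between 2891 and 3955 in plasma cells. Neutrophil markers (S100a8, S100a9, Retnlg, Ngp and Camp) differed between libraries in both classes, and all 5 were detected in each class of every Decoy library. In B cells they summed to 25.3 CPM in the PBS library and to 8361, 216, 3105 and 1255 in Decoy 2, 3, 5 and 6, and in plasma cells to 14.3 and to 81.6, 5170, 16741 and 3322. The 5 macrophage markers summed to 40.0 CPM in plasma cells of the PBS library and to 98.8, 2079, 1283 and 1348 in those of the Decoy libraries. The 4 leukaemic mast-like markers summed to 997 CPM in plasma cells of the PBS library and to 233, 157, 3.18 and 308 in those of Decoy 2, 3, 5 and 6. These sums were higher than in the B cells of each library. The part of these RNAs in the results was not tested.

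Ighv transcripts were concentrated in plasma cells in every library. Plasma cells held 120 of the Ighv UMIs of kept cells in the PBS library (53.3%) and 972, 2590, 5289 and 2094 in Decoy 2, 3, 5 and 6 (between 90.0% and 92.4%), although they were at most 7.35% of kept cells. As a level, the Ighv UMIs of a class over all its UMIs, plasma cells had 343 CPM in the PBS library and 620, 445, 494 and 509 in the Decoy libraries, and B cells had 49.5 and 33.3, 38.2, 33.6 and 33.1. The groups do not overlap. The Decoy means were 517 ± 74 (SD, n = 4) in plasma cells and 34.5 ± 2.5 in B cells, a difference seen in 4 of 4 libraries (two-sided exact sign-flip permutation test, p = 0.13, the smallest that 4 libraries allow). In cells gated as T cells, which do not rearrange this locus productively and serve as the background of free RNA, the level was 0 in the PBS library and between 0.698 and 2.64 CPM in the Decoy libraries. In cells gated as leukaemic mast-like it was at most 0.313 CPM.

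An Ighv UMI was found in 87.5% of plasma cells in the PBS library and in 97.4%, 89.4%, 95.1% and 92.5% in Decoy 2, 3, 5 and 6. In B cells the share was 32.1% in the PBS library and 27.8%, 38.9%, 29.8% and 26.3% in the Decoy libraries, and in T-gated cells it was 0 of 61 (up to 5.87% by the exact Clopper-Pearson interval) and between 1.54% and 4.95%. With every cell thinned to 2000 UMIs, the share was between 54.7% and 60.5% in Decoy plasma cells, between 6.80% and 9.72% in B cells of Decoy 2, 3 and 6, 10.3% in those of Decoy 5, 15.6% in those of the PBS library, and at most 1.01% in T-gated cells. At most 10 cells of a class and library were too shallow to be thinned. In the PBS library only 8 plasma cells entered, of which 25% kept an Ighv UMI.

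The V segment was a small part of the heavy chain reads. For every 1000 UMIs of the 8 heavy chain constant genes, plasma cells had 7.97 Ighv UMIs in the PBS library and 8.44, 8.02, 7.69 and 7.03 in Decoy 2, 3, 5 and 6. B cells had 28.5 in the PBS library and between 11.9 and 12.3 in the Decoy libraries. The ratio was lower in plasma cells than in B cells in 4 of 4 Decoy libraries, with means of 7.80 ± 0.59 and 12.1 ± 0.15 (SD, n = 4, two-sided exact sign-flip permutation test, p = 0.13). The B cells of the PBS library, with 84 Ighv and 2946 constant gene UMIs, stood outside the range of the other libraries.

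To describe use, a cell was assigned an Ighv gene when that gene had 3 or more UMIs and 80% or more of the Ighv UMIs of the cell. This gave 31, 93, 200 and 80 assigned plasma cells in Decoy 2, 3, 5 and 6, with 22, 43, 60 and 41 different genes. In the PBS library 5 plasma cells were assigned, each to a different gene, namely Ighv1-39, Ighv1-52, Ighv1-42, Ighv1-19 and Ighv8-8. Of the 404 assigned cells of the Decoy libraries 402 carried a member. Of the 83 members, 14 were used by plasma cells of all 4 Decoy libraries, 18 of 3, 15 of 2 and 24 of 1, and 12 had 0 assigned plasma cells there. Those 12 were Ighv4-1, Ighv2-5, Ighv5-2, Ighv4-2, Ighv15-2, Ighv1-54, Ighv1-41, Ighv1-47, Ighv1-58, Ighv1-67, Ighv1-63 and Ighv1-62-3. In the Decoy libraries 66 plasma cells had 3 or more UMIs of a gene but less than 80% from it, and in 38 of these (57.6%) the leading 2 genes came from 1 family. The most frequent such pair was Ighv1-72 with Ighv1-62-3, in 8 cells, followed by Ighv1-53 with Ighv1-55 in 5.

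No gene dominated the plasma cells. The most used gene took 9.68% of assigned cells in Decoy 2 (Ighv3-8 and Ighv1-81, 3 cells each, 95% Clopper-Pearson interval 2.04% to 25.8%), 11.8% in Decoy 3 (Ighv1-26, 11 cells, 6.05% to 20.2%), 7% in Decoy 5 (Ighv1-26, 14 cells, 3.88% to 11.5%) and 6.25% in Decoy 6 (Ighv9-3 and Ighv1-59, 5 cells each, 2.06% to 14.0%). These intervals cover counting error only, and they overlap. The 10 most used genes together held 61.3%, 48.4%, 44% and 46.3% of assigned cells. Concentration was measured as the match probability, the share of all pairs of assigned cells of a library that carry the same gene. It was 2.37% in Decoy 2 (11 of 465 pairs), 2.90% in Decoy 3 (124 of 4278), 2.42% in Decoy 5 (481 of 19900) and 2.06% in Decoy 6 (65 of 3160). Its inverse, the number of equally used genes that would give the same value, was 42.3, 34.5, 41.4 and 48.6. In the PBS library 0 of 10 pairs matched.

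Pairs of plasma cells from different Decoy libraries carried the same gene nearly as often as pairs from 1 library. The between-library match probability ranged from 1.81% (Decoy 5 with Decoy 6) to 2.55% (Decoy 3 with Decoy 5), with a mean of 2.22% over 6 pairs of libraries against 2.43% within libraries. Of the 22 genes used in Decoy 2, 20 were also among the 60 used in Decoy 5, and Decoy 3 and Decoy 6, with 43 and 41 genes, shared 30.

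**Figure D1:**
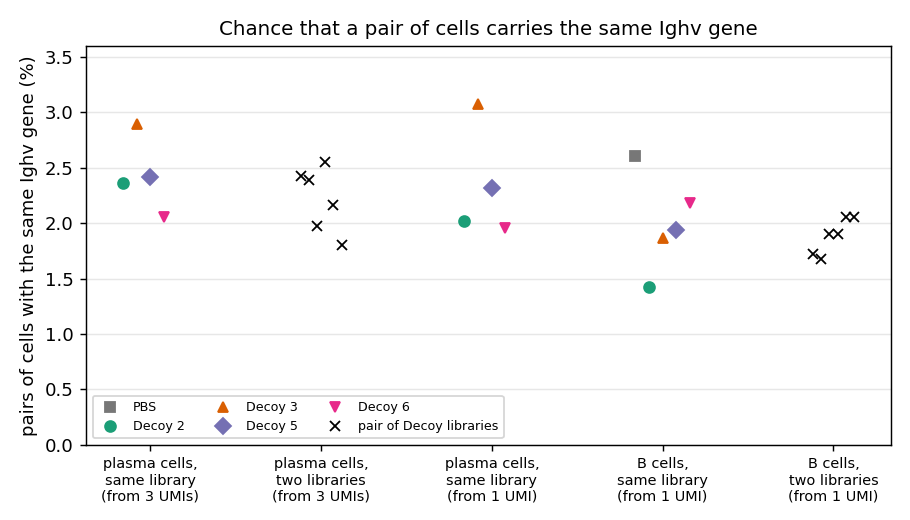
Match probability, the percent of pairs of cells that carry the same Ighv gene. Plasma cells were assigned from 3 UMIs and B cells from 1 UMI. Plasma cells assigned from 1 UMI are shown for pairs within a library only. Coloured symbols are single libraries and crosses are pairs of Decoy libraries; with assignment from 3 UMIs, values within plasma cells of a library lie between 2.06% and 2.90% and values between libraries between 1.81% and 2.55%.

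Ighv1-26 was the gene with the highest mean use in plasma cells. It was assigned to 1, 11, 14 and 4 cells of Decoy 2, 3, 5 and 6, or 3.23%, 11.8%, 7% and 5% of assigned cells, a mean of 6.76% ± 3.71 (SD, n = 4). Decoy 3 was the highest and Decoy 2 the lowest. Its relative Ighv1-18, printed above, was chosen for mention after its values were seen: it had 1, 1, 11 and 0 cells, so that 11 of its 13 cells lay in Decoy 5.

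Ighv3-8 was assigned to 3, 4, 4 and 2 plasma cells in the same order, a mean of 4.62% ± 3.51 (SD, n = 4), with the highest share, 9.68%, in Decoy 2. Ighv9-3 had 2, 3, 5 and 5 cells (4.61% ± 2.04), the most even of the leading genes across libraries apart from Ighv5-17. Ighv1-81 had 3, 2, 8 and 1 cells (4.27% ± 3.78), again highest in Decoy 2. Ighv5-17 had 2, 2, 7 and 3 cells (3.96% ± 1.80). These 5 leading genes were used in each Decoy library, and the differences between neighbours in this order were smaller than the SD over libraries.

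Ighv1-55 followed with 1, 5, 10 and 0 plasma cells (3.40% ± 2.45), although plasma cells of Decoy 6 held 43 Ighv1-55 UMIs. Ighv3-6 had 1, 6, 5 and 1 cells (3.36% ± 2.22) and Ighv2-2 had 2, 1, 3 and 3 (3.19% ± 2.47). Ighv1-59, which shared the lead in Decoy 6 with 5 cells, had 0 in Decoy 2 and 3 each in Decoy 3 and Decoy 5.

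The number of V UMIs per cell also differed between genes. Over the 71 members with an assigned plasma cell in the Decoy libraries, the median count per assigned cell ran from 4 to 50 UMIs. Among the 30 members with 5 or more assigned cells, the ratio to 1000 constant gene UMIs of the same cells ran from 4.01 for Ighv1-69 to 12.8 for Ighv3-6. It was 5.57 for Ighv1-26, 10.9 for Ighv3-8 and 9.04 for Ighv1-81. A gene's share of UMIs is therefore not its share of cells: Ighv1-81 had the most UMIs of all members with 14 Decoy plasma cells, and Ighv1-26 had 537 UMIs with 30.

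**Figure D2:**
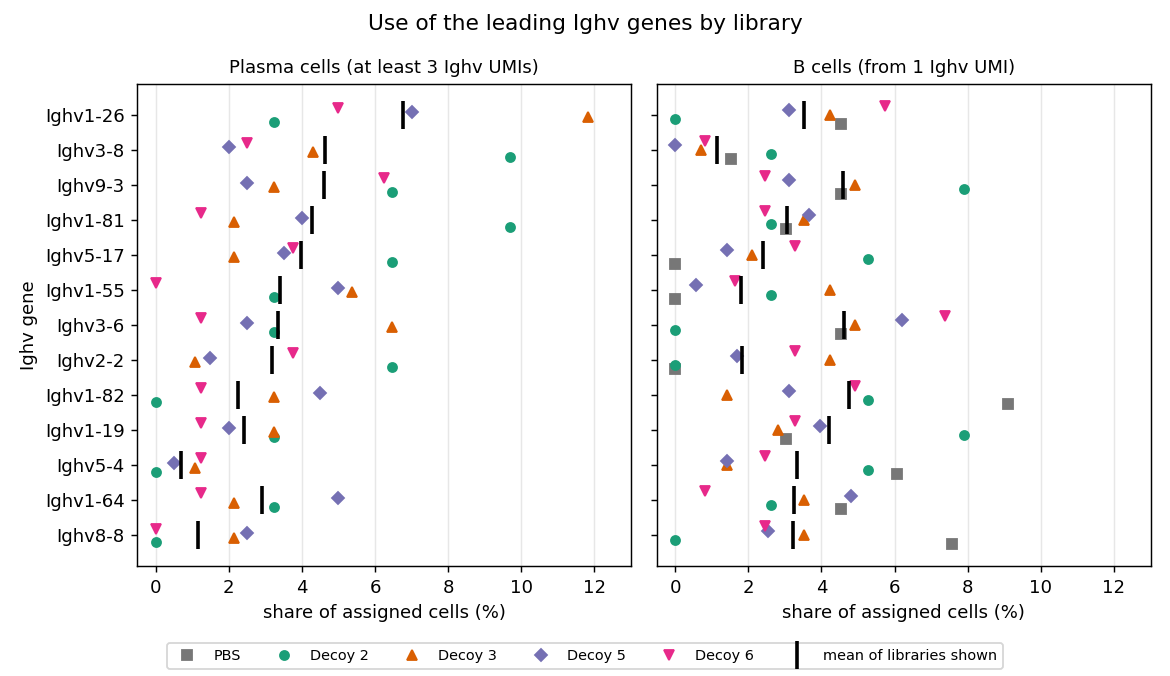
Share of assigned cells (%) that carry each of the leading Ighv genes, in plasma cells of the Decoy libraries and in B cells of all 5 libraries. Symbols are libraries and black bars their mean; Ighv1-26 leads in plasma cells with a mean of 6.76%, and Ighv1-82 leads in B cells with 4.76%.

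B cells carried too few Ighv UMIs for the 3 UMI criterion, which assigned 1 of 215 in the PBS library and 3, 10, 18 and 4 in Decoy 2, 3, 5 and 6. A second criterion, chosen after seeing this, took the gene with more than 50% of the Ighv UMIs of a cell from 1 UMI on. It assigned 66, 38, 142, 354 and 122 B cells, carrying 35, 30, 61, 82 and 54 genes. An Ighv UMI was also found in between 1.54% and 4.95% of T-gated cells of the Decoy libraries and in 0 of 61 of the PBS library. The part of free RNA in the B cells assigned at 1 UMI was not tested.

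The genes most used in B cells overlapped in part with those of plasma cells. Averaged over the 5 libraries, Ighv1-82 led with 4.76% ± 2.87 (SD, n = 5), from 6, 2, 2, 11 and 6 cells. Ighv3-6 had 3, 0, 7, 22 and 9 cells (4.61% ± 2.81) and led in Decoy 5 (6.21%) and Decoy 6 (7.38%), and it shared the lead in Decoy 3 with Ighv9-3. Ighv9-3 had 3, 3, 7, 11 and 3 cells (4.59% ± 2.11), and Ighv1-19 had 2, 3, 4, 14 and 4 (4.20% ± 2.11). Ighv1-26 (3.52%), Ighv5-4 (3.32%), Ighv1-64 (3.26%) and Ighv8-8 (3.22%) completed the 8 most used. In the PBS library Ighv1-82 led with 9.09% and Ighv8-8, with 5 cells, had 7.58%. Ighv3-8, second in plasma cells, was found in 1, 1, 1, 0 and 1 B cells (1.13% ± 0.99). Over the 83 members the mean share in plasma cells of the Decoy libraries (from 3 UMIs) and that in B cells (from 1 UMI) had a Spearman rho of 0.61 and a Pearson r of 0.65, a description over genes that share libraries, annotation and sequence.

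The match probability in B cells was 2.61% in the PBS library and 1.42%, 1.87%, 1.94% and 2.18% in Decoy 2, 3, 5 and 6. All 4 Decoy values were lower, by 0.76 percentage points ± 0.32 (SD, n = 4, two-sided exact permutation of the PBS label over the 5 libraries, p = 0.2, the smallest possible). Under the same 1 UMI criterion, plasma cells exceeded B cells in 3 of 4 Decoy libraries, with means of 2.34% and 1.85% (difference 0.49 ± 0.59, exact sign-flip p = 0.25). Under the 3 UMI criterion only Decoy 3 and Decoy 5 had 10 or more assigned cells of each class, and the means were 2.66% in plasma cells and 3.99% in B cells (exact p = 1, where 2 libraries cannot go below 0.5). The share of the leading gene was 7.92% in plasma cells and 6.60% in B cells from 1 UMI (exact sign-flip p = 0.5), and 9.41% and 20.6% from 3 UMIs (exact p = 0.5). A difference in concentration between the classes was not detectable at this depth, and its sign depended on the criterion.

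Ighv1 was the most used family in both classes. This family, the largest with 41 of the members, took 41.9%, 52.7%, 58% and 58.8% of assigned plasma cells in Decoy 2, 3, 5 and 6 (52.8% ± 7.8, SD, n = 4). In B cells from 1 UMI it took 50% in the PBS library and 54.4% ± 2.5 in the Decoy libraries. With the same 1 UMI criterion in both classes the means were 54.9% and 54.4%, a difference of 0.46 percentage points ± 9.19 (exact sign-flip p = 0.875). From 3 UMIs the Ighv1 share was higher in plasma cells of both testable libraries, 55.3% against 39.4% (exact p = 0.5). B cells of the Decoy libraries lay 4.45 points above the PBS library (exact permutation p = 0.2, higher in 4 of 4). With both classes assigned from 1 UMI, plasma and B cell means over the Decoy libraries were 7.92% and 6.13% for Ighv3, 7.30% and 5.88% for Ighv9, 6.65% and 11.3% for Ighv5, 6.08% and 5.87% for Ighv2, 4.04% and 3.27% for Ighv14 and 5.32% and 5.35% for Ighv8. In the PBS library 9 of 66 assigned B cells carried Ighv8 and 9 carried Ighv5 (13.6% each).

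**Figure D3:**
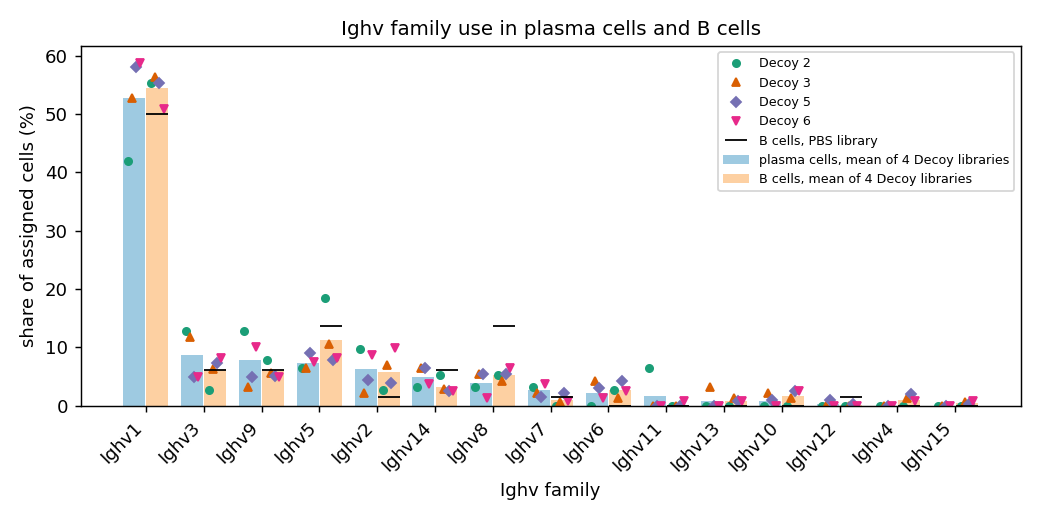
Share of assigned cells (%) per Ighv family, as bars for the mean of the 4 Decoy libraries with symbols for each library, in plasma cells (from 3 UMIs) and B cells (from 1 UMI). Black lines are B cells of the PBS library; the Ighv1 bars stand at 52.8% and 54.4%.

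In plasma cells 3 genes of small families were each assigned in a single library. Ighv11-2 was assigned to 2 plasma cells, both in Decoy 2 and both led by Ighm, and Ighv13-2 to 3 cells of Decoy 3. Ighv12-3 was assigned to 2 cells, both in Decoy 5 and led by Ighm. Ighv11 and Ighv12 rearrangements are known in B-1 cells, where they bind phosphatidylcholine. These 3 genes were chosen after their values were seen, and in B cells from 1 UMI Ighv13 occurred in Decoy 3, 5 and 6.

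Position along the locus was described in 3 equal parts by distance from the joining genes, with plasma cells assigned from 3 UMIs and B cells from 1 UMI, so that the criterion differs between the classes. The nearest part (35 members) held 54.8%, 35.5%, 32.5% and 38.8% of assigned plasma cells in Decoy 2, 3, 5 and 6, a mean of 40.4% against 35.5% of B cells (exact sign-flip p = 0.375, higher in 3 of 4). The middle part held 31.9% of plasma cells and 33.0% of B cells (p = 0.625, exact), and the farthest part 27.7% and 31.5% (p = 0.5, exact). Decoy 2 was the library with the most use of the nearest part and the least of Ighv1, whose members all lie in the other parts.

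**Figure D4:**
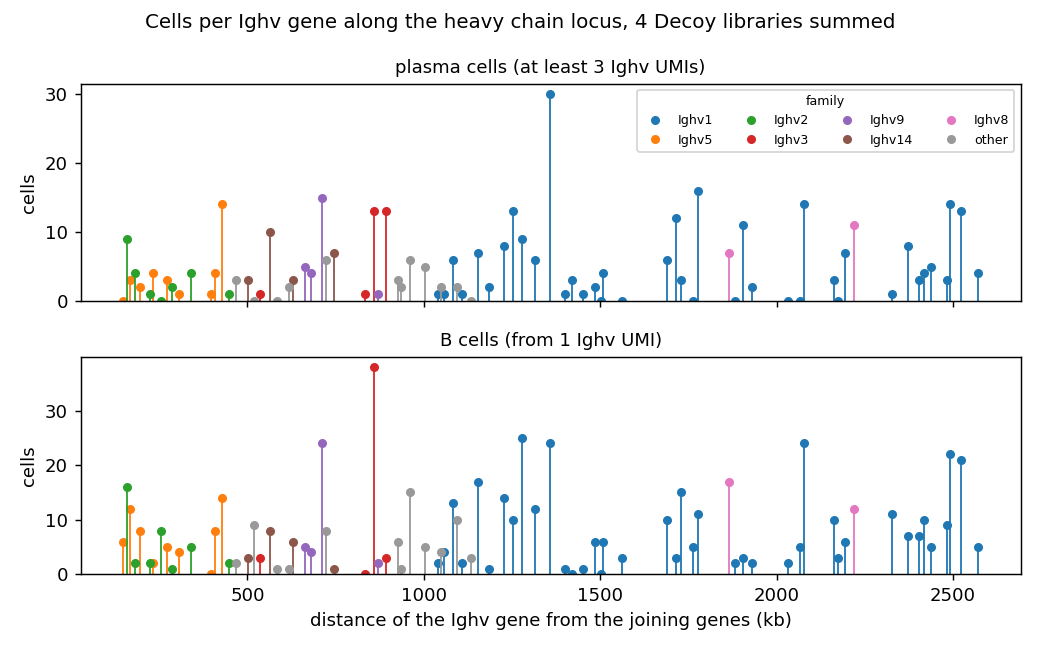
Number of assigned cells per Ighv gene by distance (kb) from the joining genes, summed over the 4 Decoy libraries, for plasma cells (upper) and B cells (lower), coloured by family. The tallest line in plasma cells is Ighv1-26 with 30 cells, and in B cells Ighv3-6 with 38.

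UMI counts summed per library and class were compared with the quasi-likelihood test of edgeR, with the library as a block, over the Decoy libraries. Of 10627 genes tested, 2585 were higher (24.3%) and 2427 lower (22.8%) in plasma cells at an adjusted p under 0.05. Of the 83 members 14 passed the filter on low counts, and each of these was higher. They passed it through the plasma cells, where they are abundant, so nothing is read from that count, and the levels that follow are a description with no test. Ighv3-8 stood at 98.0, 11.8, 14.3 and 11.9 CPM in plasma cells of Decoy 2, 3, 5 and 6 and 1.63, 0.160, 0.0663 and 0.192 in B cells. The plasma cell values lay above the B cell values, with a fitted log2 ratio of 6.36. The B cell values are near 0 and rest on few UMIs, so the size and order of this ratio and those that follow are uncertain. The ratio was 5.48 for Ighv5-17, 4.78 for Ighv1-64, 4.70 for Ighv1-81 and 4.69 for Ighv1-55. Ighv1-64 stood at 18.9, 26.4, 30.1 and 20.3 CPM in plasma cells and between 0.383 and 1.33 in B cells.

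In B cells no member was called between the Decoy libraries and the PBS library in edgeR. Of 11392 genes tested 1130 were called (9.92%), 494 higher (4.34%) and 636 lower (5.58%), and 10 members were tested. Of these 0 were called at an adjusted p under 0.05 in edgeR, 2 had an unadjusted p under 0.05, and DESeq2 called 0. The 2 were Ighv8-8 and Ighv1-82. Ighv8-8 stood at 3.87 CPM in the PBS library and 0, 1.07, 0.938 and 1.03 in the Decoy libraries (log2 fold change -2.13). Ighv1-82 stood at 3.87 and 1.25, 0.712, 1.15 and 1.45 (-1.82). Both passed the filter on low counts only through the PBS library, where they are highest, so nothing is read from their difference. Both PBS values rest on 7 UMIs. The PBS group has a single library, so the estimate of the spread rests on the 4 Decoy libraries.

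The constant gene next to the V segment sets the isotype. Ighg2c led 31.6%, 50.4%, 37.7% and 34.0% of plasma cells in Decoy 2, 3, 5 and 6, and Ighm 26.3%, 32.6%, 28.3% and 23.6%. Among assigned cells alone, Ighg2c led 10, 33, 84 and 32 and Ighm 10, 38, 50 and 14, so the order was reversed in Decoy 3. There Ighg2c led 22 of the 29 plasma cells assigned only from 1 UMI and 16 of the 19 not assigned. These sets had low median totals, 4155 and 3314 UMIs. In switched cells, led by an Ighg or Igha gene, the mean match probability was 2.45% ± 0.14 and in Ighm-led cells 2.48% ± 1.47 (SD, n = 4, exact sign-flip p = 1). Sets led by a single constant gene varied more. Ighg2b-led cells of Decoy 6 stood at 6.54% and Ighm-led cells of Decoy 3 at 4.55%, but Ighm-led cells of Decoy 5 at 2.04%. Another set with a higher match probability was the Ighg1-led cells of Decoy 5. Of their 24 assigned cells 8 carried Ighv1-64, and 30 pairs matched (10.9%), whereas the 10 assigned Ighg1-led cells of Decoy 6 carried 10 different genes. Ighv7-3 was led by Ighm in 6 of 6 cells from all 4 Decoy libraries, and Ighv8-12 by Ighg2c in 9 of 11. These genes were chosen after their values were seen. Pairs of cells that shared an Ighv gene shared the constant gene in 31.3% ± 9.6 of cases, other pairs of the same library in 26.1% ± 3.2 (higher in 3 of 4 libraries, exact sign-flip p = 0.25).

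The kappa light chain partner was added after seeing the data. Plasma cells that shared an Ighv gene shared the kappa variable gene (Igkv) in 4 of 9 pairs in Decoy 2 (44.4%), 17 of 96 in Decoy 3 (17.7%), 40 of 434 in Decoy 5 (9.22%) and 10 of 59 in Decoy 6 (16.9%). Pairs of the same library with different Ighv genes shared it in 5.69%, 2.50%, 2.61% and 3.56%. Pairs that shared the Ighv gene but came from different libraries shared it in 11.8%, 5.73%, 6.08% and 5.48%. Sharing was therefore highest within a library in 4 of 4 libraries against either background (exact sign-flip p = 0.13 for both, the smallest possible, with mean differences of 18.5 ± 14.0 and 14.8 ± 12.5 percentage points). Shares of pairs give much weight to a combination found in several cells. The matching pairs came from 2, 3, 24 and 6 repeated combinations in Decoy 2, 3, 5 and 6. Most of those in Decoy 3 came from 6 cells of 1 combination, and most of those in Decoy 2 from 3 cells of another. The sequence across the V, D and J junction, which identifies descendants of 1 B cell, is not measured in these counts.

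**Figure D5:**
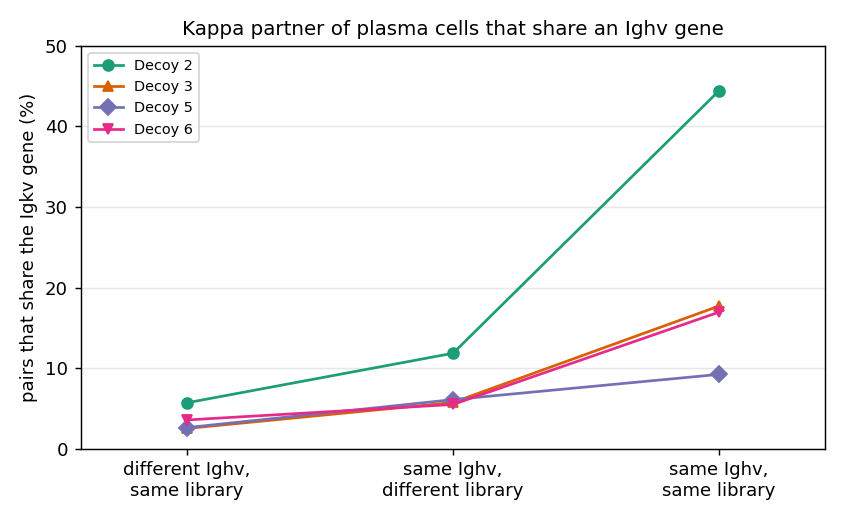
Percent of pairs of plasma cells that share the Igkv gene, by whether they share the Ighv gene and the library; each line is a Decoy library. Values lie between 2.50% and 5.69% for different Ighv genes and between 9.22% and 44.4% for the same gene in the same library.

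The largest combination was Ighv1-26 with Igkv10-96 in 6 cells of Decoy 3, of which 3 were led by Ighm, 2 by Ighg2b and 1 by Ighg2c, and 2 further cells of other libraries carried it. Ighv3-8 with Igkv10-96 was found in 3 cells of Decoy 2 and 5 of other libraries. The 8 Ighg1-led Ighv1-64 cells of Decoy 5 included 4 with Igkv1-110 and 3 with Igkv14-111, and 0 and 1 cells of other libraries carried these combinations. In Decoy 6, 3 Ighv9-3 cells carried Igkv6-15 and were all led by Ighg2b. Both Ighv12-3 cells carried Igkv4-91. Igkv10-96 itself was common, in 23.5%, 19.4%, 9.57% and 8.79% of plasma cells with an assigned Igkv gene in Decoy 2, 3, 5 and 6.

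Other genes of the pathway were compared in the same fits. Among 7 tested genes of V(D)J recombination, Lig4, the ligase that seals the joined segments, was higher in plasma cells (log2 fold change 1.48), Prkdc (-0.93) and Xrcc5 (-0.65), parts of the DNA-dependent kinase, were lower, and 4 passed no threshold. The recombinase genes Rag1 and Rag2 and the polymerase gene Dntt were too low to be tested, with 0 CPM of each in plasma cells of all 4 Decoy libraries. Of the 7 heavy chain constant genes tested 6 were higher, Ighg1 by 9.72, Ighg2c by 8.98 and Ighm by 3.55 on the log2 scale, and Ighd, a gene of the B cell gate, was lower (-5.37). All 5 of the light chain constant and joining genes were higher, among them Igkc (5.16) and Jchain, which the gate used. All 6 genes of B cell receptor signalling were lower, including Cd79a (-2.56), which the B cell gate used, and Syk (-1.11), which it did not. Of 8 factors that act on V promoters or the locus, Pou2af1, the coactivator of octamer-binding proteins, was higher (0.83), and Pou2f2 (-1.30), Ikzf1 (-1.0), Pax5 (-4.28) and Ebf1 (-4.53) were lower. Mki67, a marker of dividing cells, was higher (0.82).

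Some genes of these lists were also called in B cells between Decoy and PBS libraries. Ighm was higher in the Decoy libraries, at 1870, 2229, 1973 and 1903 CPM in Decoy 2, 3, 5 and 6 against 1050 in the PBS library (log2 fold change 0.88 ± 0.15, SE, edgeR adjusted p = 0.0117). Ighg2b stood at between 233 and 324 CPM against 18.8 (3.92 ± 0.27, edgeR adjusted p = 0.00129). Of 7 tested constant genes 4 were higher, the others being Ighg3 (3.02) and Igha (2.72). In T-gated cells, as the background of free RNA, Ighg2b was at 0 CPM in the PBS library and between 12.8 and 57.4 in the Decoy libraries. Igha was at 0 CPM in T-gated cells of the PBS library and at 0.639, 4.15, 11.1 and 3.14 in those of Decoy 2, 3, 5 and 6. B cells of the same Decoy libraries held 9.85, 7.72, 13.3 and 12.6 CPM, so the levels were close only in Decoy 5. The part of free RNA in these differences was not tested. Of 6 receptor signalling genes 3 were higher, among them Blnk (1.16) and Syk (0.87), and of 8 promoter and locus factors Pou2f2 (0.92), Pax5 (0.74) and Ikzf1 (0.60) were higher and Yy1 (-0.63) was lower. Vpreb3, a gene related to the surrogate light chain, was lower (-1.29). Of the V(D)J recombination list 0 of 8 tested genes passed the threshold in edgeR. The summed Ighv level of B cells, by contrast, was 49.5 CPM in the PBS library and between 33.1 and 38.2 in the Decoy libraries. The 4 leukaemic mast-like markers, all detected in B cells of the PBS library, summed there to 399 CPM and in the Decoy libraries to 112, 6.43, 2.72 and 54.2, and their part in these differences was not tested.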

How the data were processed

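Counts per gene and barcode (UMIs), deposited by the authors without normalization, were used as they stood for the PBS and the 4 Decoy libraries. The matrix headers name Cell Ranger 5.0.0, whereas the submitters' processing notes name Cell Ranger 3.1, Seurat 4, DESeq2 and mm10. Annotation and transcripts came from GENCODE vM21. Barcodes with at least 500 genes, 1000 UMIs and at most 10% mitochondrial UMIs were kept. Doublets were not removed; an alternative left out the highest scores of scrublet, run by scanpy 1.11.5.

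Sums per library and class were tested with edgeR 4.0.16 in R 4.3.3 (TMM, filterByExpr, quasi-likelihood test, two-sided, Benjamini-Hochberg over all genes tested) or DESeq2 1.42.0 as an alternative. In counts simulated from these libraries, edgeR called 98.5% of 200 genes changed 4-fold for plasma cells against B cells and 77.5% for B cells between treatments, with 5.29% and 7.19% false calls. The changed genes were drawn from those above a minimum expected count, at a fixed dispersion and with no difference between libraries. These rates therefore do not apply to members with few UMIs in B cells. Single values were compared with exact permutation tests over libraries. Light chains were limited to Igkv, because Iglv1 UMIs occurred in between 85.7% and 97.2% of kappa plasma cells.

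The members, lists and tests were chosen with earlier results of these data known. Genes named are the 8 most used members in plasma cells and in B cells, the leading gene of each library, the 5 tested members with the largest difference between classes, and those at the limit of 10 UMIs; others are marked in the text. Some genes of the lists are not reported here.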

Additional observations from a re-analysis of the deposited data

Results flagged for a closer look

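In groups of 4 Decoy libraries, 8 of the 68 groups examined had a highest or lowest library whose gap to the nearest other exceeded Dixon's 95% critical value, where chance gives about 1 in 20 for continuous values. That rate does not hold for shares with the other libraries at 0%, which exceed it even from 1 cell. In plasma cells Decoy 2 stood apart for the Ighv11 family (6.45% of assigned cells, the other libraries at 0%), Decoy 5 for Ighv12 (1%, others at 0%) and Decoy 3 for Ighv13 (3.23%, others at 0%). These rest on 2, 2 and 3 cells. In B cells assigned from 1 UMI, Decoy 6 stood apart for Ighv11 (0.820%, others at 0%) and Decoy 5 for Ighv12 (0.282%, others at 0%), each from 1 cell, and Decoy 2 for Ighv14 (5.26%, others between 2.46% and 2.82%), from 2 cells. Decoy 3 had the highest Ighv level in B cells, 38.2 CPM against 33.1 to 33.6 in the other Decoy libraries. Decoy 2 had the highest share of plasma cell pairs that shared an Ighv gene with another library and also the Igkv gene, 11.8% against 5.48% to 6.08%.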

How the results depend on the processing

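Of 121 alternative values for 13 results, 107 were classed as unchanged, and 13 changed sign. Unchanged means the same sign and side of the threshold for tests, or a value within the spread between libraries. For counts of called genes it means within a factor of 1.5. The exact permutation tests cannot fall below 0.05 with these libraries, so there it means only that the sign was kept. From 3 UMIs, leaving out Decoy 2 or Decoy 6 kept the same libraries in comparisons with B cells, so those values could not change. Among the values that changed sign, the excess within over between libraries in B cells from 3 UMIs, 2.32 points, was -0.01 from 1 UMI. The difference in match probability between plasma and B cells, -1.33 points from 3 UMIs, was 0.49 from 1 UMI and 1.24 with UMIs as the unit; that in the leading gene's share, -11.1 points, was 1.32 and 2.47. The Ighv1 difference, 15.9 points, was -3.37 with UMIs as the unit. From 1 UMI it was 0.46, and -1.03 over all barcodes and -3.37 by UMIs, and between -2.85 (without Decoy 6) and 3.80 leaving out 1 library (-1.28 without Decoy 5). The excess of the match probability within over between libraries, 0.22 points in plasma cells and -0.01 in B cells from 1 UMI, became 2.36 and 1.48 by UMIs, where 1 cell can hold many; the latter was 0.06 over all barcodes and 0.05 without Decoy 2. Calls between plasma and B cells numbered between 3201 (without Decoy 5) and 5842 leaving out 1 library, against 5012, and those between B cells of Decoy and PBS between 592 (without Decoy 5) and 1517, with 735 without Decoy 3, against 1130. Members called between treatments stayed at 0 throughout. Without the library block (no replicate block) 4935 genes were called between the classes; no paired analysis was possible between treatments because PBS and Decoy share no replicate number. The criterion of 10 UMIs, the leaving out of Decoy 3 or Decoy 5 and the comparison with PBS gave no value for B cells from 3 UMIs, since fewer than 10 cells were assigned. With 1 or 2 Ighv UMIs in most B cells and 5 assigned plasma cells in the PBS library, use by treatment in plasma cells could not be tested.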

Other observations

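Ighv8-12 led the plasma cells of Decoy 3 under the 1 UMI criterion, with 12 cells (9.84%), but not under the 3 UMI criterion, where it had 3. The other 9 barcodes had 1 or 2 Ighv8-12 UMIs, and all 9 were led by Ighg2c. Their totals were low, between 1047 and 4155 UMIs with a median of 1982, they had between 6 and 62 Jchain UMIs, and between 1 and 5 of 9 further plasma cell genes were detected. The 3 cells with more Ighv8-12 UMIs had totals between 8193 and 51513, between 195 and 261 Jchain UMIs and between 6 and 8 of the 9 genes. Decoy 3 was also the library with the most barcodes of 5 to 9 Jchain UMIs, 17 against 0, 1, 2 and 3 in the PBS library, Decoy 2, Decoy 5 and Decoy 6, and their median total was 2592 UMIs.

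Single cells carried much of some genes. For 27 of the 71 members with an assigned plasma cell in the Decoy libraries, 1 cell held more than 50% of the gene's UMIs in assigned cells, a count that includes members with a single assigned cell. The highest were an Ighv9-2 cell with 216 UMIs (72.5% of the gene's) and an Ighv5-17 cell of Decoy 6 with 178 (34.5% of the gene's and 8.50% of the Ighv UMIs of plasma cells in that library). The 2 pairs of genes that most often divided the UMIs of 1 plasma cell after Ighv1-72 and Ighv1-62-3 were Ighv1-53 with Ighv1-55 (5 cells of 3 libraries) and Ighv1-81 with Ighv1-82 (3 cells of 1 library).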
